A study of Mus musculus with 4 samples.

Results

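The cells described here are 184 of 2417 kept cells from the intervertebral discs of mouse tails, which are fibrocartilage cushions that join neighbouring vertebrae, chosen because the serum amyloid A genes Saa1, Saa2 and Saa3 and the chitinase-like gene Chil1 scored highest in them. Kept cells had at least 500 detected genes and under 10% mitochondrial counts. Each cell was scored on 7 panels of 4 genes, a score being the mean of the panel's standardized log levels over all kept cells, and a member had its highest score on the Saa and Chil1 panel, above 0.5. The levels of those 28 panel genes chose the members, so they are given as a description and were not tested.

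All groups came from female wildtype C57BL/6 mice of 12 weeks, at 7 days after injury. Injured discs (levels CC5/6 to CC9/10 of the tail) had been punctured on both sides with a 30G needle, and control discs (CC12/13 to CC16/17) were left intact in the same animals, so injury and tail level cannot be told apart. Discs of 6 mice, 30 per group, were pooled into a suspension that was frozen, thawed and sorted for viable cells, and each group was sequenced in 2 rounds. The labels do not say whether the rounds came from separate pools, so the spread between libraries of a group may be partly technical.

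Serum amyloid A proteins are small lipid-binding proteins of the acute-phase response, made in bulk by the liver after tissue injury or infection and, for Saa3 in particular, also by cells outside the liver. IL-1, TNF and IL-6 are textbook inducers of these genes through the transcription factors NF-kB, C/EBP and STAT3. Chil1 encodes a secreted chitinase-like protein known from stressed cartilage, and its human counterpart YKL-40 is a cartilage glycoprotein. Lcn2 encodes lipocalin 2, which binds bacterial iron carriers and is made by many cells after IL-1.

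The 3 Saa genes of the panel lie in a cluster on mouse chromosome 7 (GENCODE vM21 on GRCm38), with Saa4 (chr7:46727998-46732603, minus strand) between Saa3 and Saa1: Saa3 at chr7:46711998-46715700 and Saa1 at chr7:46740497-46742980 on the minus strand, and Saa2 at chr7:46751790-46754313 on the plus strand. Chil1 lies at chr1:134182176-134190181 on the plus strand and Lcn2 at chr2:32384633-32388252 on the minus strand. Upstream sequence is shown for the 3 Saa genes, which give the cells their name, so that their likeness can be seen. Each window runs from 250 to 44 bases before the start that RefSeq gives; GENCODE places the starts of Saa2 and Saa3 earlier, and the bases nearer the RefSeq start, which GENCODE counts in part to the genes, are left out. Sequences are from RefSeq on GRCm38.p6, 5′ to 3′ on the gene's strand; capitals mark matches, on either strand, to the NF-kB consensus or to TTGCNNAA, a core of C/EBP sites.
Saa1 (chr7:46743024-46743230): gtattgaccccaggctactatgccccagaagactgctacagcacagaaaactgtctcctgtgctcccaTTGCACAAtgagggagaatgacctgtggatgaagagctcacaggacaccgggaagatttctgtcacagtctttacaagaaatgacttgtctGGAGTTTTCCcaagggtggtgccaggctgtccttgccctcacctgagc
Saa2 (chr7:46751583-46751789): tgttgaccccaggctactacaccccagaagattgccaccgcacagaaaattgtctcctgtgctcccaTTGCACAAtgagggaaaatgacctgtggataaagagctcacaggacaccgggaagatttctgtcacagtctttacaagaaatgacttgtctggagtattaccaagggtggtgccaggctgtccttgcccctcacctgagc
Saa3 (chr7:46715720-46715926): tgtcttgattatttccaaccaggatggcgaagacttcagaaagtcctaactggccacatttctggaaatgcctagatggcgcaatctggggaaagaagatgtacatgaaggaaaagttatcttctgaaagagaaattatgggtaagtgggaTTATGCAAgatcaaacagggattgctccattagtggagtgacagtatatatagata

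The Saa1 and Saa2 windows were 93.8% identical (195 of 208 aligned positions), and the Saa1 and Saa3 windows 48.7%. A TTGCNNAA match lay 182 to 175 bases before the start of Saa1, 183 to 176 before that of Saa2 and 99 to 92 before that of Saa3 (on the other strand). The NF-kB consensus matched 91 to 82 bases before the start of Saa1. Of 32851 RefSeq promoters, 7.80% held an NF-kB match and 8.35% a TTGCNNAA match in the same 207 bases. The last 300 bases of the Saa1 and Saa2 transcripts, where the reads of a 3′ assay fall, were 92.4% identical, so the split of molecules between these 2 genes is uncertain; for Saa1 and Saa3 the figure was 42.5%.

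The members made up 13 of 199 kept cells (6.53%, exact 95% binomial interval 3.52 to 10.9%) in control round 1 and 6 of 228 (2.63%, 0.972 to 5.64%) in control round 2. They made up 45 of 588 (7.65%, 5.64 to 10.1%) in injured round 1 and 120 of 1402 (8.56%, 7.15 to 10.1%) in injured round 2. Injured libraries thus held the larger shares, but the highest control share was close to the lowest injured share. Control libraries averaged 4.58% ± 2.76 (SD, n = 2). Injured libraries averaged 8.11% ± 0.641 (SD, n = 2), a difference of 3.52 percentage points that was 1.12 points in round 1 and 5.93 points in round 2. An exact two-sided permutation test over the libraries gave p = 0.333, the smallest p that 2 against 2 libraries allow. Intervals cover counting error only. With every cell thinned to 1500 UMIs (distinct transcript molecules) and shallower cells left out (43, 19, 20 and 48 in the order above), the shares were 6.41, 2.39, 6.87 and 8.05%.

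**Figure D1:**
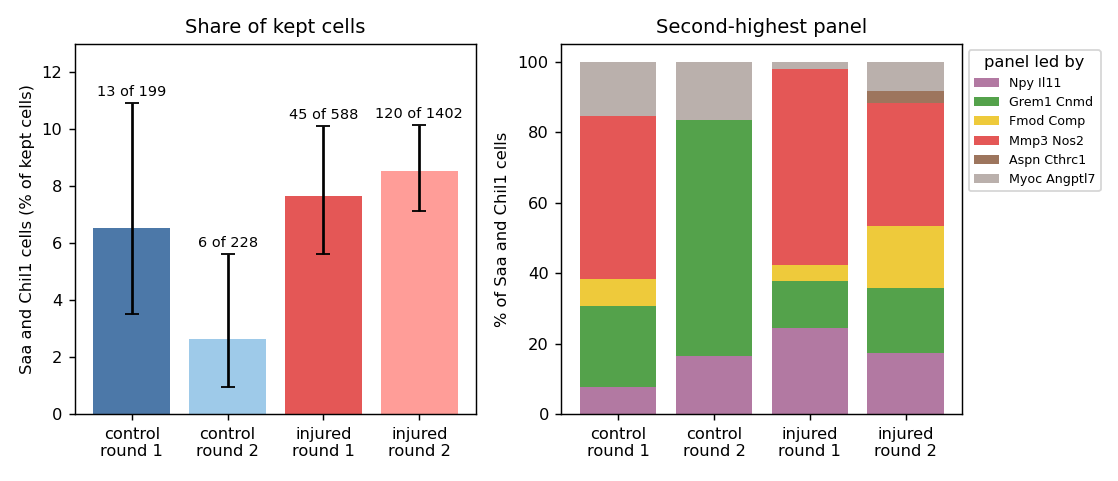
Left, members as a percentage of kept cells in each library (bars) with exact 95% binomial intervals and the counts above. Right, which of the other 6 panels scored second in the members of each library, as a percentage of members; the Mmp3 and Nos2 panel came second in 6 of 13, 0 of 6, 25 of 45 and 42 of 120 members.

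The libraries held 1114210, 9891258, 8943537 and 16972879 UMIs over all listed barcodes, in the order control round 1, control round 2, injured round 1 and injured round 2. The members' median depth was 3901, 8518.5, 9138 and 5222 UMIs, against 3844.5, 5234.5, 8658 and 5928.5 in the other kept cells. In round 1, 39 kept control cells and 108 kept injured cells had a barcode found with at least 500 UMIs in both libraries. Among the members these were 4 of 13 in control round 1, with 803 to 997 UMIs there and 24560 to 32544 UMIs under the same barcode in injured round 1, and 8 of 45 in injured round 1. The shared barcodes held 3611 of the 72317 member UMIs of control round 1 and 206093 of the 506945 of injured round 1. Without all shared barcodes the difference in member share was 4.08 points. Scrublet, a doublet caller, marked 1, 1, 0 and 1 members, and no doublets were removed.

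Saa1, not Saa3, was the leading gene of these cells. Saa1 had a UMI in 172 of 184 members (93.5%), Chil1 in 135 (73.4%), Saa2 in 127 (69.0%) and Saa3 in 53 (28.8%). Saa1 or Saa2 was present in 175 members (95.1%), and 94 members held 3 of the 4 panel genes, 61 held 2, 18 held 4 and 11 held 1. The members are called Saa and Chil1 cells below after the panel, although most had no Saa3 molecule and most control members no Chil1 molecule.

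Saa1 reached 4383, 5126, 7172 and 8601 CPM (UMIs of the gene per 1000000 UMIs summed over the members) in control round 1, control round 2, injured round 1 and injured round 2. The median member held 22.5 Saa1 UMIs and the highest 535. Saa1 helped to choose the members, so its high level in the members of every library follows from the rule. The 2 control values lay below the 2 injured ones, which was not tested. Such a lack of overlap, in either direction, held for 37.7% of 4096 genes compared between injured and control members. In control round 2, 190 of the 323 Saa1 UMIs sat in 1 cell. Members held 75.1% of all Saa1 UMIs in kept cells, and 423 of the 2233 other cells (18.9%) had at least 1.

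Saa2 stood at 3512, 698, 1568 and 1555 CPM in the same order, so control round 1 was highest and control round 2 lowest, with the injured libraries between them. Of the Saa1 and Saa2 molecules together, Saa2 was 44.5% in control round 1, 12.0% in control round 2, 17.9% in injured round 1 and 15.3% in injured round 2. Without the shared barcodes, Saa2 in control round 1 was 3580 CPM over 9 members. In the 120 members of injured round 2, the log levels of Saa1 and Saa2 had a Pearson correlation of 0.64 across cells, a description in which cells share a library, were chosen on the mean of both genes and others, and near-identical transcripts may share reads.

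Saa3 was spread far less evenly, at 83.0 CPM (6 UMIs) in control round 1, 0 UMIs in control round 2, 217 CPM (110 UMIs) in injured round 1 and 2708 CPM (2046 UMIs) in injured round 2. The count of 0 in control round 2 allows up to 58.5 CPM by the exact Poisson interval, for counting error only. Of all members' Saa3 UMIs, 53.9% sat in 5 cells, the highest with 389. Saa3 had a UMI in 3 of 13, 0 of 6, 5 of 45 and 45 of 120 members, so 1 library carried most of the Saa3 in these cells. Without shared barcodes Saa3 was 29.1 CPM (2 UMIs) in control round 1 and 99.7 CPM in injured round 1. Members held 92.2% of the Saa3 UMIs of kept cells, and 3.00% of the other cells had 1 or more.

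Chil1 reached 525, 2762, 1178 and 1400 CPM. The value of control round 2 came from 1 cell with 174 UMIs, and Chil1 had a UMI in 4 of 13 and 1 of 6 control members against 38 of 45 and 92 of 120 injured members. Members held 33.9, 84.9, 37.7 and 60.2% of the Chil1 UMIs of kept cells in the 4 libraries, and 11.3, 5.41, 31.3 and 18.4% of other cells had a UMI.

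**Figure D2:**
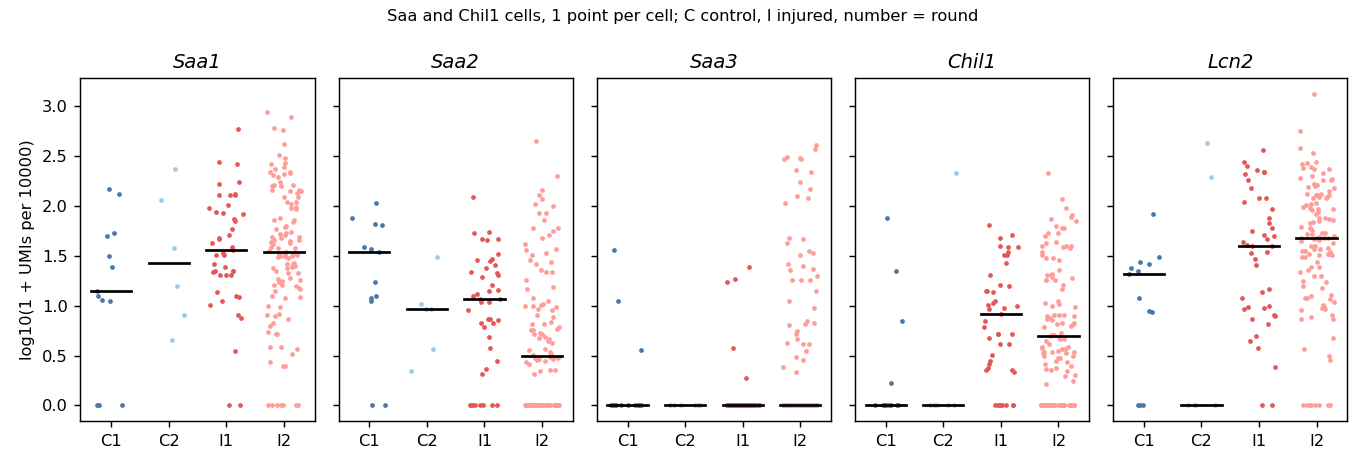
Levels of the 4 panel genes and Lcn2 in each member, as log10(1 + UMIs per 10000 UMIs of the cell), by library (C1, C2 control and I1, I2 injured, rounds 1 and 2); points are cells and black lines medians. Saa1 is present in nearly all members, while the Saa3 median is 0 in every library and high Saa3 cells are found mainly in I2.

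As a check on free RNA, 48 kept cells with at least 3 of 8 endothelial markers, a cell type that should lack these genes, had a median of 3719.5 UMIs. Saa1 had a UMI in 1 of them (2.08%), Saa2, Saa3 and Chil1 in 0 of 48, and Lcn2 in 5 (10.4%). The members were chosen on the 4 panel genes, so their higher shares in those genes follow from the rule. Lcn2, which the rule did not score, had a UMI in 90.8% of the members, at a pooled median depth of 6220.5 UMIs, but in only 2 of 6 members of control round 2. It was also common outside the members, with a UMI in 43.4% of all other kept cells and in 56.5% of those of injured round 1.

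Around the threshold of 0.5, the lowest members scored 0.510, 0.528 and 0.568, and the highest cells outside in which the Saa and Chil1 panel led scored 0.499, 0.494 and 0.494. Between 0.5 and 0.75 there were 19 members, and between 0.25 and 0.5 there were 28 such cells outside; the median member score was 1.77. A further 145 cells passed 0.5 on the Saa and Chil1 panel but scored higher on another, most often, in 79 cells, on that of Mmp3, Nos2, Cxcl1 and Cxcl2. The same panel was second in 73 members (39.7%), and 110 members also passed 0.5 on their second panel, so many members scored high on more than 1 state.

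Markers placed the members with cartilage-like disc cells. Acan, the core protein of the proteoglycan aggrecan, had a UMI in 173 of 184 members, Col2a1, the fibrillar collagen of cartilage, in 174, and Sox9, the master transcription factor of chondrocytes, in 176. All 12 markers of cartilage or inner annulus were detected over the members together, but only 8 in each control library. Col9a1, Matn3 and Matn4 were at 0 in both control libraries, and Matn3 had only 1 UMI, in injured round 2. The summed level was 8615 to 13857 CPM in the members by library, against 8269 to 11890 CPM in the other kept cells. The 10 markers of outer annulus or fibroblasts summed to 525 to 1375 CPM, against 3404 to 18573 CPM in other cells, with Pi16 at 0 and Dpt and Mfap5 detected in at most 1 library.

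Macrophage and endothelial markers were sparse. The 10 macrophage markers gave 30 UMIs in all members (0 to 27.8 CPM by library), with Ptprc, Adgre1, Pf4 and C1qa at 0. Endothelial markers gave 3 UMIs and dividing-cell markers 25. Mural cell markers gave 286 UMIs from 6 of 8 genes, with Myh11 and Notch3 at 0, at 205 CPM (69.1 to 282 by library) against 323 CPM in other cells. Neutrophil markers gave 98 UMIs from 5 of 8 genes, with Ly6g, Ngp and Csf3r at 0. They stood below other cells in control round 1 (13.8 against 44.4 CPM) and control round 2 (0 against 5.08 CPM) and above them in injured round 1 (92.7 against 22.5 CPM) and injured round 2 (66.2 against 14.7 CPM). Lcn2 and Slpi are also made by neutrophils, and the part of these 98 UMIs in their levels was not tested. Of the 8 notochordal markers 3 were detected, with 1070 UMIs, at 765 CPM (365 to 886 by library) against 547 CPM in other cells (384 to 1569). Of these UMIs, 1063 were of Cd24a, 6 of Car3 and 1 of Krt8, while T, Krt18, Krt19, Shh and Noto were all at 0.

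Members were next compared with 3 other cell states of the same discs, each chosen by its own panel with the same rule: 229 Grem1 and Cnmd cells, 367 Mmp3 and Nos2 cells and 299 Fmod and Comp cells. Counts were summed per library and state and tested with edgeR with the library as a block, in the 3 libraries that held at least 10 cells of each state (control round 1, injured round 1 and injured round 2; n = 3). The 28 panel genes were left out. All states were cut by levels of the panel genes, so genes that vary with those genes are favoured by the choice, and the 3 comparisons share the members.

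Against the Grem1 and Cnmd cells, a state led by the BMP antagonist Gremlin 1 and by chondromodulin, the members were higher in Lcn2, Slpi, Timp1 and Dcn and lower in Alpl and Ucma. Of 3994 genes tested, 28 (0.701%) passed an adjusted p of 0.05, 14 higher (0.351%) and 14 lower (0.351%), and 378 had an unadjusted p under 0.05. Lcn2 stood at 1314, 7971 and 9042 CPM in the members of control round 1, injured round 1 and injured round 2, and at 470, 533 and 3872 CPM in the Grem1 cells of the same libraries. Members were thus above Grem1 cells in each library, although the Grem1 cells of injured round 2 lay above the members of control round 1. The log2 difference was 2.19 ± 0.36 (SE; edgeR adjusted p = 0.00396). In barcodes of at most 50 UMIs, which hold free RNA, Lcn2 stood at 1402 CPM in injured round 1, above the Grem1 cells there, and at 491 CPM in injured round 2; the part of free RNA in this difference was not tested.

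Slpi, a secreted inhibitor of neutrophil elastase, was at 290, 539 and 1350 CPM in members and 13.1, 37.7 and 515 CPM in Grem1 cells, a log2 difference of 2.66 ± 0.40 (SE; edgeR adjusted p = 0.00254). The Slpi value of Grem1 cells in injured round 2 lay within the range of the members. Timp1, an inhibitor of metalloproteinases, was at 816, 1357 and 1461 CPM against 137, 624 and 476 CPM, and its groups did not overlap (1.74 ± 0.26; adjusted p = 0.00254). Dcn, the small proteoglycan decorin, was at 6126, 9648 and 12422 CPM against 814, 5520 and 2277 CPM, also without overlap (2.09 ± 0.28; adjusted p = 0.000856). Without shared barcodes the Dcn difference was 1.58 and no longer passed. The growth factors Ereg (2.32) and Bmp2 (1.29) and the glutathione peroxidase Gpx3 (1.33) were also higher. So were the proprotein convertase Pcsk5 (1.99), Ecm1 (1.29) and Tsc22d1 (1.25). Genes outside the fixed lists were named only if every library had the direction of the fit, so that accord follows from the choice.

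Of 12 tested genes of metal and oxidative defence 3 passed, all higher, with a median log2 difference of 0.57 over the 12 against -0.01 over all genes tested. They were Gpx3 and the metallothioneins Mt1 and Mt2, which bind zinc and copper. Mt1 was at 6029, 15647 and 13368 CPM in members and 4826, 6144 and 8260 CPM in Grem1 cells (log2 0.83 ± 0.19; edgeR adjusted p = 0.0472). Mt2 was at 3498, 3470 and 3428 CPM against 1369, 2297 and 1947 CPM (0.95 ± 0.20; adjusted p = 0.0256), but stood at -0.070 when the members were chosen on Saa3 and Chil1 alone. Of 15 alternative settings, Mt1 did not pass in 10 and Mt2 in 7 besides that reversal, among them DESeq2, thinned cells and leaving out either injured library. The Mt2 values of the states did not overlap, whereas the Mt1 value of control round 1 members lay within the Grem1 range. Of 5 tested acute-phase genes outside the panels, Lcn2 and Slpi were higher and none lower. Fn1, fibronectin, was higher by 0.78 and the chemokine Ccl7 by 1.92, the latter falling to 0.26 without shared barcodes.

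Lower in the members were Alpl, the phosphatase of mineralizing cartilage, at 41.5, 0 and 0 CPM (3 UMIs) in members against 242, 86.1 and 3.55 CPM (91 UMIs) in Grem1 cells (log2 -4.02 ± 0.71; edgeR adjusted p = 0.00779), and Ucma, a secreted protein of the upper growth-plate zone, at 221, 45.4 and 42.4 CPM against 353, 151 and 405 CPM (-2.0 ± 0.38; adjusted p = 0.0134). For Alpl both states were near 0 in injured round 2. The gap in Ucma was narrow in control round 1 and wide in the injured libraries. Of 15 tested cartilage matrix genes, Ucma and Col11a2 (-1.41) were lower and none higher, with a list median of -0.59. Ppp1r3c, Il17d, Nrtn, Gem, Scara3, Ptgis, Gas1 and C4b were lower by log2 values of -3.18 to -1.43, of which Gas1 (-1.0) and C4b (-1.31) did not pass without shared barcodes. The call count rested on the libraries used: 146 without control round 1, 4 without injured round 1, 4 without injured round 2, 43 without shared barcodes, 14 by DESeq2 and 0 with no library term.

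**Figure D3:**
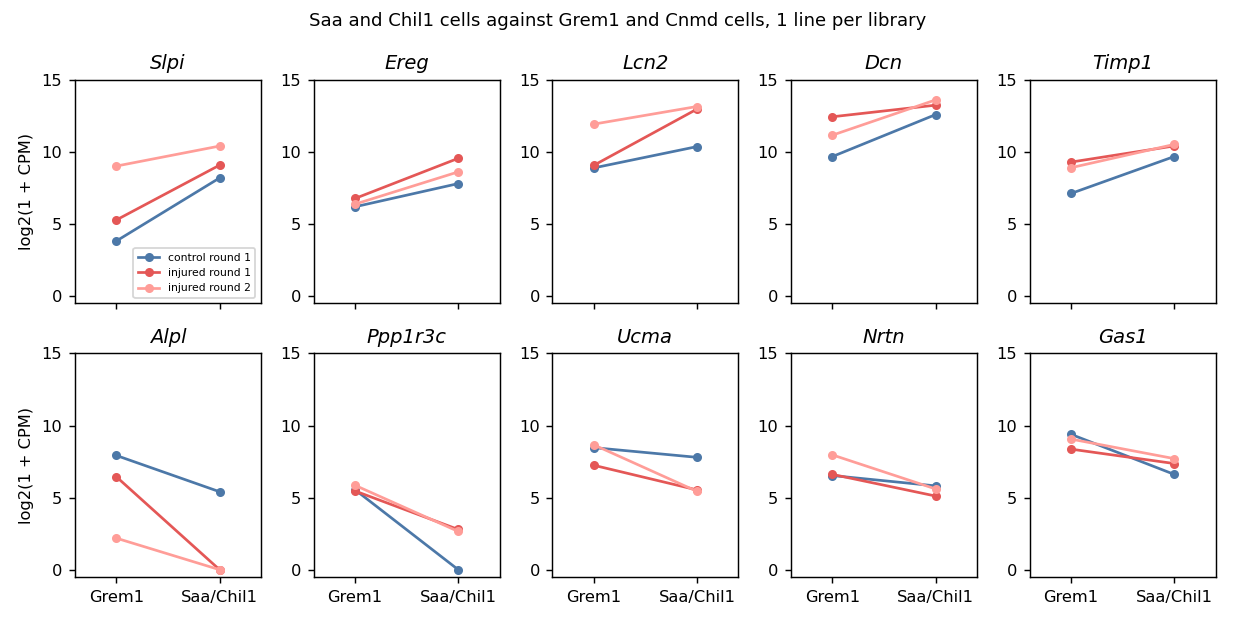
Levels of 10 named genes as log2(1 + CPM) in Grem1 and Cnmd cells (left) and Saa and Chil1 cells (right) of the same library, 1 line per library. Lines rise for the upper 5 genes and fall for the lower 5 in all 3 libraries. This was required of the largest called changes, from which the genes were taken. Ucma in control round 1 is nearly flat, and Alpl in injured round 2 is near 0 in both states.

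The Mmp3 and Nos2 cells, an inflammatory state with metalloproteinase, nitric oxide synthase and chemokine genes, were the nearest to the members by second score. Here 21 of 5972 genes (0.352%) passed, 9 higher (0.151%) and 12 lower (0.201%), and 401 had an unadjusted p under 0.05. Lcn2 was again higher: the Mmp3 cells held 879, 1807 and 1788 CPM, so members of control round 1, at 1314 CPM, fell within that range and the injured members lay well above it (log2 1.76 ± 0.27; edgeR adjusted p = 0.0151). All 5 tested acute-phase genes, Lcn2 included, lay above 0 with a median of 0.78, but none besides Lcn2 passed.

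Lower in members than in Mmp3 cells were Ccl2, Lif and Tnfaip2. Ccl2, the monocyte chemokine, was at 539, 1038 and 376 CPM in members and 4985, 1924 and 1567 CPM in Mmp3 cells, with no overlap (log2 -1.97 ± 0.31; edgeR adjusted p = 0.0175). Lif, a cytokine of the IL-6 family, was at 41.5, 59.2 and 50.3 CPM against 203, 158 and 149 CPM (-1.58 ± 0.22; adjusted p = 0.0100). Tnfaip2, a TNF-induced gene, was at 41.5, 35.5 and 50.3 CPM against 213, 149 and 150 CPM (-1.86 ± 0.24; adjusted p = 0.0070). The member values of Lif and Tnfaip2 were close to each other in the 3 libraries and far below every Mmp3 value.

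AW112010, an interferon- and inflammation-induced transcript, was at 5 UMIs in members against 293 in Mmp3 cells (log2 -4.15). Cilp2 (-1.85), Rnd1 (-1.55), Plet1 (-1.46), Pmvk (-1.22) and the kinase gene Pim1 (-1.17) were also lower. Of 14 tested IL-6 and STAT3 genes Lif and Pim1 were lower and none higher, and of 12 tested NF-kB feedback genes none passed, with a median of -0.41 against 0.01 over all genes. Of 5 tested chemokines outside the panels only Ccl2 passed, and all 5 had a negative difference.

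Heat shock and immediate early genes were the fixed list with most genes higher against Mmp3 cells: 3 of 16 passed, none lower, with a median of 0.38. The list leaned the other way against the other states, with none called. Against Grem1 cells 1 of 16 lay above 0 (median -0.56), and against Fmod cells 4 of 16 did (median -0.59). Hspa1a, an inducible HSP70 gene, was at 27.7, 278 and 540 CPM against 19.3, 45.1 and 159 CPM (log2 2.12 ± 0.24; edgeR adjusted p = 0.00531). Hspa1b, its near-identical neighbour, was higher by 1.80 and the immediate early gene Fosb by 1.21; reads may be split between Hspa1a and Hspa1b. Such genes also respond to cell isolation, and whether handling has a part was not tested. The BMP antagonist Chrdl2 (2.04), Gadd45g (1.58), the transcription factor Sox4 (1.46) and Id1, a BMP target (1.31), were higher too, Sox4 falling to 0.73 without shared barcodes. This count rose to 83 without control round 1, 80 without shared barcodes and 45 with a minimum of 250 genes, and was 20 without injured round 1 and 17 without injured round 2, of which 8 and 7 were among the 21, 9 by DESeq2 and 0 with no library term.

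**Figure D4:**
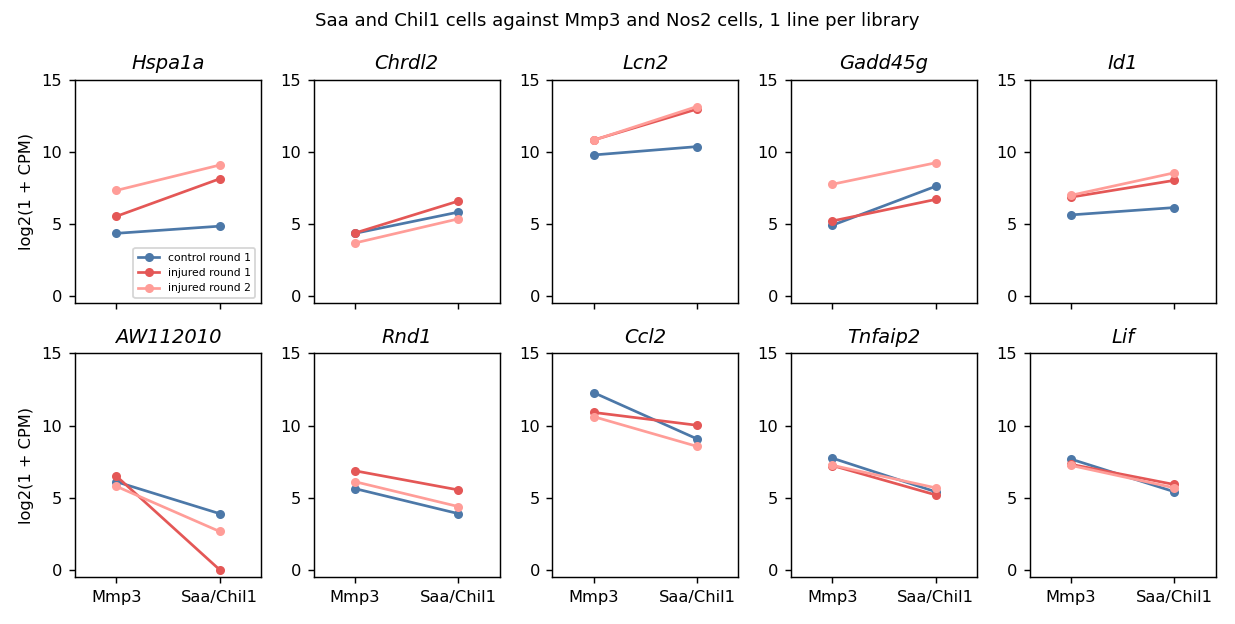
Levels of 10 named genes as log2(1 + CPM) in Mmp3 and Nos2 cells (left) and Saa and Chil1 cells (right) of the same library, 1 line per library. The upper 5 genes rise and the lower 5 fall in all 3 libraries, as was required of the largest called changes from which they were taken. AW112010 reaches 0 in the injured round 1 members.

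The Fmod and Comp cells, a state of fibromodulin, cartilage oligomeric matrix protein and lubricin, gave the most called genes of the 3 states. That rank rests on the libraries used. Without injured round 1 the count was 22, against 20 for Mmp3 cells, and without injured round 2 it was 21, against 17. Of 5809 genes 261 (4.49%) passed, 88 higher in members (1.51%) and 173 lower (2.98%), and 968 had an unadjusted p under 0.05. Fibrous collagens led the lower genes. Col1a1 was at 41.5, 75.0 and 469 CPM in members against 2282, 16318 and 13019 CPM (log2 -6.22 ± 0.50; edgeR adjusted p = 1.53e-05). Col1a2 was at 387, 444 and 592 CPM against 2993, 10908 and 8210 CPM (-3.99 ± 0.30; adjusted p = 1.53e-05), and Col3a1 was lower too (-4.70). Of 13 tested fibrous matrix and repair genes 11 were lower and none higher, with a median of -2.26; the others lower included Sparc (-2.22), Col5a1 (-2.44), Col12a1 (-2.61) and the tendon regulator Scx (-1.81).

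Cartilage matrix genes went both ways against Fmod cells. Of 15 tested, Col9a2 (2.14) and Sox5 (1.30), a partner of Sox9, were higher, while Cilp2 (-3.46), Col11a2 (-1.94), Col11a1 (-1.66), Chad (-1.61), Cilp (-1.55) and Col2a1 (-0.96) were lower. Col2a1 was at 622, 4870 and 7119 CPM in members against 1837, 7309 and 10272 CPM, lower in each library though far from absent. Among hypertrophy and mineralization genes, Spp1, osteopontin, was at 10399, 6170 and 7214 CPM against 15959, 36529 and 27209 CPM (-1.84 ± 0.29; edgeR adjusted p = 0.00242), and Pth1r (-2.27) and Enpp1 (-0.90) were lower; none of 7 tested was higher.

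Lcn2 was higher in members than in Fmod cells, as was Il6, which few members carried: 7.61% of the 184 members had an Il6 UMI, and 1.34% of Fmod cells. Il6 had 66 UMIs in the members of the 3 libraries, at 124, 13.8 and 66.2 CPM, and 4 UMIs in Fmod cells, at 29.6, 0 and 0.941 CPM (log2 4.94 ± 0.65; edgeR adjusted p = 0.000513). Lcn2 was at 385, 564 and 493 CPM in Fmod cells, each below every member value (3.34 ± 0.37; adjusted p = 0.000144). Of 7 tested genes of IL-1, IL-17 and TNF input only Il1r1, the IL-1 receptor, was higher (1.30) and none lower; 2 of the 7 lay above 0, with a median of -0.29. Of 3 tested SAA receptor genes Tlr2 was higher (0.89), and of 9 tested NF-kB feedback genes Tnfaip3 (1.12) and Zc3h12a (1.87) were. Tlr2 and Tnfaip3 each did not pass in 9 of 15 alternative settings. Cebpd, a C/EBP factor of the acute-phase response, was at 1369, 1992 and 1042 CPM against 1260, 517 and 240 CPM (1.36 ± 0.33; adjusted p = 0.0322). Of 13 tested IL-6 and STAT3 genes Il6 and Cebpd were higher and Pim1 (-1.14) lower. The Cebpd gap was small in control round 1 and wide in the injured libraries.

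In all, 3 genes of the metal and oxidative list (15 tested) were higher against Fmod cells: Sod2 by 1.70, Hmox1 by 1.70 and the ferritin heavy chain gene Fth1 by 1.17. Fth1 was at 8560, 18243 and 20973 CPM in members against 7691, 5212 and 5871 CPM. Chrdl2 (4.48), the transcription factor Barx1 (3.13), the lipoprotein receptor Vldlr (2.96), Apoe (2.89), the retinol carrier Rbp4 (2.81), Cpe (2.78) and Timp4 (2.76) were also higher, as was Cdr1os (2.95), an antisense transcript whose reads may not be told from those of its partner, since the sources used here do not say whether strand was used in counting. Of 13 tested proteases and inhibitors 3 were higher and none lower: Timp4, Mmp13, a collagenase (1.52; edgeR adjusted p = 0.0485), and Mmp12, the macrophage elastase (2.45; adjusted p = 0.0473). Mmp12 was at 0, 351 and 109 CPM in members against 178, 73.1 and 2.82 CPM in Fmod cells, so control round 1 went against the direction of the fit. Mmp12 did not pass in 8 of 15 settings and Mmp13 in 8 of 14. Clec3b (-5.65), Serpinf1 (-4.59), Igfbp4 (-3.37), Ltbp2 (-3.10), Olfml3 (-3.03) and Wnt5b (-3.02) were also lower. Col1a1, Col1a2 and Col3a1 are also fibroblast markers, and the part of outer annulus cells among the Fmod cells in these differences was not tested. Tlr2, Pim1 and Enpp1 did not pass without shared barcodes. The count was 852 without control round 1, 22 without injured round 1, 21 without injured round 2, 374 without shared barcodes, 102 by DESeq2 and 5 with no library term.

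**Figure D5:**
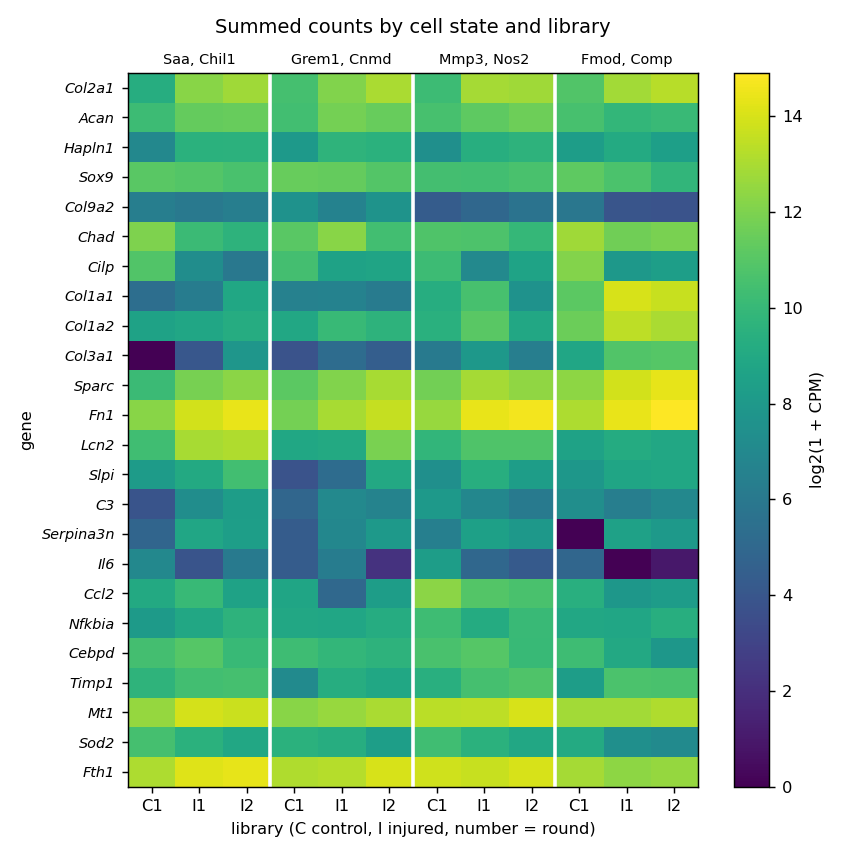
Levels of 24 genes of the fixed lists as log2(1 + CPM) of summed counts in 4 cell states and 3 libraries (C1 control round 1, I1 and I2 injured rounds 1 and 2). Fibrous collagens are bright in Fmod and Comp cells and dark in Saa and Chil1 cells, and Lcn2 is brightest in the Saa and Chil1 cells of I1 and I2.

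Il1a had 0 UMIs, Il1b 5 and Tnf 10 in all 184 members. The IL-6 family cytokines had more: Il6 had 74 UMIs, Lif 71 (in 14.7% of members) and Il11 311 (in 29.3%). Il11, a panel gene, stood at 222 CPM in members against 314 CPM in other kept cells, of which 27.1% had a UMI. Of the acute-phase list outside the panels and Lcn2, Slpi (1314 UMIs), Serpina3n (482), Cp (408), the copper carrier ceruloplasmin, and C3 (319) had the most UMIs in members, while Cfb had 31, Hp 19, Ptx3 13 and the other 8 genes 0 to 4. Cp was at 525, 286, 306 and 261 CPM in control round 1, control round 2, injured round 1 and injured round 2. Receptor and regulator genes were present: over all members Nfkbia stood at 723 CPM, Cebpb at 691 CPM, Stat3 at 197 CPM and Tlr2 at 196 CPM, while Tlr4 had 11 UMIs and Fpr2 1. C3, the central complement protein, was at 13.8, 63.5, 156 and 311 CPM in the same order.

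Within injured round 2, the only library with many Saa3 cells, 45 members had Saa3 and 75 had none, at similar median depths of 5346 and 5202 UMIs. This split uses a gene of the rule in 1 library, so no test was made. Saa3 cells held 7277 CPM Saa1 against 9476 CPM in the others, 838 against 2028 CPM Saa2 and 845 against 1767 CPM Chil1; members without Saa3 had to pass through these 3 genes, so their higher levels there follow from the rule. Saa3 cells held 2110 against 848 CPM Slpi, 7523 against 2503 CPM Mmp3, 11646 against 4287 CPM Spp1 and 649 against 349 CPM Col1a1. Mmp3 is a panel gene too, and members had to score lower on its panel than on their own. The part of the rule in the Mmp3 gap was not tested. Acan was at 2196 against 3114 CPM, Sox9 at 1214 against 1820 CPM and Col2a1 at 7743 against 6707 CPM. Across the 120 cells the log levels of Saa1 had a Pearson correlation of 0.61 with Lcn2 and of -0.0036 with Saa3. Saa3 had one of 0.35 with Slpi and of -0.066 with Lcn2. These values describe cells of 1 library, chosen on the mean of the panel genes, a choice that itself shapes correlations among them.

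Whether members differ between injured and control discs could not be tested as designed, since control round 2 held 6 members. With a minimum of 5 members, a choice made after seeing the data, edgeR called 0 of 4096 genes (0.0%), 239 had an unadjusted p under 0.05, and DESeq2 called 8. The control values rest on 13 and 6 cells, so a difference may go undetected at this depth.

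Of 124 tested genes of the fixed lists, 54 (43.5%) had control and injured values that did not overlap, against 1544 of all 4096 genes tested (37.7%), and edgeR called none of the 124. Values of 5 of them are given as a description. Serpina3n, a protease inhibitor of the acute phase, was at 27.7 and 31.7 CPM in control members (2 UMIs in each library) and 454 and 328 CPM in injured members (log2 3.85 ± 0.66; edgeR adjusted p = 0.381). Col2a1 was at 622 and 1238 CPM in control and 4870 and 7119 CPM in injured members (2.86 ± 0.57; adjusted p = 0.536). Cilp, a cartilage intermediate layer protein, went the other way, at 1867 and 1047 CPM in control and 160 and 60.9 CPM in injured members (-3.61 ± 0.64; adjusted p = 0.381), as did the adhesion gene Icam1, at 1065 and 286 against 94.7 and 45.0 CPM (adjusted p = 0.557). None of these passed the correction. Lcn2 was at 1314 and 6824 CPM in control members, the latter from 2 cells, and 7971 and 9042 CPM in injured members (1.22 ± 0.70; adjusted p = 0.805).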

How the data were processed

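Single-cell libraries (10x Genomics 3′ chemistry) of 2 control and 2 injured disc suspensions were used. The deposited values are UMI counts per gene and barcode, which the authors obtained by running Cell Ranger against mm10 (per the labels; version 6.0.0 for control round 1 and 4 elsewhere, as the file headers give it). All matrices list 32285 genes; control round 1 lists 444 barcodes and the others 1194644 to 6794880, so they were not filtered alike. The members and the gene lists were chosen with earlier results of these data known.

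Members of each state were summed per library, filtered with filterByExpr, scaled by TMM and tested with edgeR 4.0.16 (R 4.3.3; quasi-likelihood, Benjamini-Hochberg adjustment over all genes tested), with DESeq2 1.42.0 as an alternative. CPM are UMIs per 1000000 UMIs of the summed cells. Since each UMI is 1 molecule read at its 3′ end, no length correction was made. The script was checked on simulated data with known changes. Scrublet (in scanpy 1.11.5) gave doublet calls.

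Named genes are those of the 7 panels and 16 fixed lists, and the 10 largest called changes in each direction with the same sign in every library and a mean of at least 20 CPM in the higher state, leaving out mitochondrial, ribosomal, Gm and Rik genes; a gene that met this rule is not reported here. The rounds share a number and, per the labels, control and injured discs share animals; deviations of same-round control and injured members from their group means correlated at 0.43 over 4096 genes, and the round enters as a replicate block only in an alternative; the injury values given are without it.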

Additional observations from a re-analysis of the deposited data

Results flagged for a closer look

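The difference in Saa2 between injured and control members had opposite signs in the 2 rounds, -1944 CPM in round 1 and 857 CPM in round 2. The difference in Chil1 was opposite as well, 652 CPM in round 1 and -1361 CPM in round 2, where the control value came from 1 cell. These differences between rounds were not tested, as each rests on 1 library per arm. In barcodes of at most 50 UMIs, far below the depth of kept cells and part of no comparison, Saa1 stood at 103 CPM in injured round 1 and 165 CPM in injured round 2, against 21.0 CPM in control round 2. Saa3 stood at 10.3 and 111 CPM in the same injured libraries, against 7.63 CPM in control round 2. Saa2 stood at 38.7 and 26.5 CPM there, against 0.953 CPM, Chil1 at 96.2 and 62.4 CPM, against 35.8 CPM, and Lcn2 at 1402 and 491 CPM, against 329 CPM in control round 2. Control round 1 lists no such barcodes.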

How the results depend on the processing

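The difference in member share between injured and control discs kept its direction in every alternative run, from 3.06 points (thinned cells) to 6.46 points (members chosen on Saa3 and Chil1 alone); leaving out 1 library gave 1.57 to 5.47 points, and the replicate block (rounds as pairs) 3.52 points with an exact p of 0.5. Counts of called genes moved far more. Against Grem1 cells the 28 calls became 8 with a score over 1, 206 with members chosen on Saa3 and Chil1 alone, 3 with thinned cells, 43 without shared barcodes, 14 by DESeq2, 67 with no filter on low counts, 0 with no library term, and 4 to 146 with 1 library left out. Against Mmp3 cells the 21 calls became, in the same order, 38, 80, 21, 80, 9, 133, 0 and 17 to 83, and 45 with a minimum of 250 genes and 2 with a minimum of 5 cells per library, a setting chosen after seeing the data. Against Fmod cells the 261 calls became 526, 462, 542, 374, 102, 439, 5 and 21 to 852, and 529 without Scrublet calls. In the injury comparison, whose settings were all chosen after seeing the data, the 0 calls became 6 with a score over 1, 2 with members chosen on Saa3 and Chil1 alone, 8 by DESeq2, 14 with no filter, and 0 to 20 with 1 library left out; the replicate block called 0. Of the genes named in a comparison, 91 of 96 lost their call with no library term, 31 of 88 by DESeq2, 66 of 91 without injured round 1, 67 of 90 without injured round 2 and 0 of 95 without control round 1; Mt2 against Grem1 cells was the only reversal (-0.070, members chosen on Saa3 and Chil1 alone). Against Mmp3 cells, 12 of the 21 called genes were also called with thinned cells. Calls lost in most of the settings (8 to 10 each) were those of Mt1, Ecm1, Ccl7 and C4b against Grem1 cells and Pmvk and Sox4 against Mmp3 cells. Against Fmod cells they were those of Pim1, Tlr2, Tnfaip3, Mmp12 and Mmp13. Mt2 against Grem1 cells lost its call in 7 settings besides its reversal, so it too failed in most of its 15. Settings that bring a library under 10 cells of a state drop it and leave 2 libraries in the fit; otherwise the cause of a changed count was not tested. With 13 and 6 members, the control libraries limit every statement on injury.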

Other observations

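Of 5 tested lipid and prostaglandin genes, Ptges and Apoe were higher and Ptgis lower in members than in Fmod cells, Ptgis alone was lower than in Grem1 cells, and none passed against Mmp3 cells. Ptges, the inducible prostaglandin E synthase, was at 207, 90.7 and 62.2 CPM in members of control round 1, injured round 1 and injured round 2 and at 0, 31.5 and 13.2 CPM in Fmod cells (log2 1.96 ± 0.36; edgeR adjusted p = 0.00583). Ptgis, the prostacyclin synthase, was lower in members than in Grem1 cells (-1.43; adjusted p = 0.0148) and than in Fmod cells (-1.90; adjusted p = 0.0015). Gbp2, an interferon-induced GTPase, was the only one of 3 tested interferon genes that passed against Fmod cells, at 387, 71.0 and 38.4 CPM against 119, 8.6 and 6.12 CPM (2.36 ± 0.34; adjusted p = 0.00109), and none of the tested interferon genes passed against Grem1 cells (2 tested) or Mmp3 cells (3 tested). The glucose transporter gene Slc2a1 was the only one of 14 tested glycolysis and hypoxia genes that passed against Fmod cells (0.96; adjusted p = 0.0349), and it did not pass without shared barcodes.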
